A study of Brachypodium distachyon with 214 samples.

Results

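The genes described here are 65 nuclear loci of the grass Brachypodium distachyon whose transcripts were counted mainly in leaves of the accession Bd3-1 and rarely in leaves of the accession Bd21. They were chosen from the 32523 rows of the count table by their measured levels. A level is given as CPM, the count of a gene per 1000000 counts of its library. A gene was taken when its mean level was at least 4 CPM in both Bd3-1 groups and when, under the same watering, that mean was at least 4 times the Bd21 mean, in control and in drought. Of 12526 nuclear genes that reached 4 CPM in both Bd3-1 groups, these 65 met the second condition. The same rule with the accessions exchanged gave 138 genes found mainly in Bd21. Because the difference between the accessions chose the genes, it is reported as a description and was not tested.

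Bd21 and Bd3-1 are inbred natural accessions, and the genome of Bd21 is the reference of the species. Each library came from leaf tissue of 1 plant. Control plants, 48 of Bd21 and 58 of Bd3-1, were held at 85% of field capacity, the water a soil retains after free drainage. Droughted plants, 49 of Bd21 and 59 of Bd3-1, dried from day 33 on. Their leaf tissue was taken when 6 days had passed and the soil held 55% of that capacity. No transgene or other agent was used. Every library is a separate plant of an inbred line, so the spread between libraries is that between plants of 1 genotype.

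Inbred accessions of a plant species differ in which genes they hold and in the promoters of the genes they share, so that a transcript abundant in one accession can be rare in another. Gene presence, promoter sequence and the activity of regulators elsewhere in the genome can all set such differences, and a measurement of transcripts alone does not separate them. The loci described here are all annotated in the Bd21 reference, to which the reads of both accessions were aligned. Soil drying changes leaf transcripts widely, through abscisic acid and other signals, and a difference between accessions in that response is called a genotype by environment interaction. For genes found mainly in Bd3-1 the contrasts between watering regimes are separate from the contrast that chose them, and they carry the tests below.

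The loci are named as in the count table, in which the first digit of a name gives the chromosome. The reference table paired none of them with a gene symbol (0 of 65), and the study's text describes 2 of them, so that for the other 63 no function is given here. Bradi3g59380 is listed there among regulators with a NAC domain, a family of plant transcription factors with many members active in senescence and stress. Bradi5g18277 is a predicted serine-type endopeptidase, an enzyme class that cuts proteins within the chain.

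Library totals ranged from 0.525 to 8.37 M counts with a median of 1.92 M. Plastid sequences took a mean of 7.78% of counts in Bd21 control, 7.34% in Bd21 drought, 7.19% in Bd3-1 control and 6.92% in Bd3-1 drought, and the chlorophyll A-B binding protein gene Bradi4g31257 averaged 56.9 to 65.1 CPM over the 4 groups, so that both leaf markers were present throughout. The library labelled Bd3-1 drought replicate 59 stood apart. The 138 genes found mainly in Bd21 summed to 8560 CPM in it, against 362 to 772 CPM in the other droughted Bd3-1 plants and 7157 to 10427 CPM in droughted Bd21 plants. It was left out of the rule and of the values below unless it is named.

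Levels of the 65 genes in Bd3-1 were modest. Their mean was 4.05 to 1242 CPM in control plants, with a median of 12.7 CPM over genes, and 8 genes averaged at least 50 CPM over the Bd3-1 groups while 25 averaged under 10 CPM. In Bd21 the median over genes was 1.38 CPM in control and 1.35 CPM in drought. The ratio of the Bd3-1 mean to the Bd21 mean had a median of 8.99 in control and 9.65 in drought, and 28 of the 65 genes had ratios of at least 10 under both regimes. Many of these ratios are uncertain, because they divide by few counts. The mean Bd21 count per library had a median over genes of 2.90 in control and 2.52 in drought. In whole leaves, fewer cells that express a gene and less transcript per cell cannot be told apart. None of the 65 was without counts throughout Bd21, and 58 had a count above 0 in every Bd3-1 library.

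**Figure D1:**
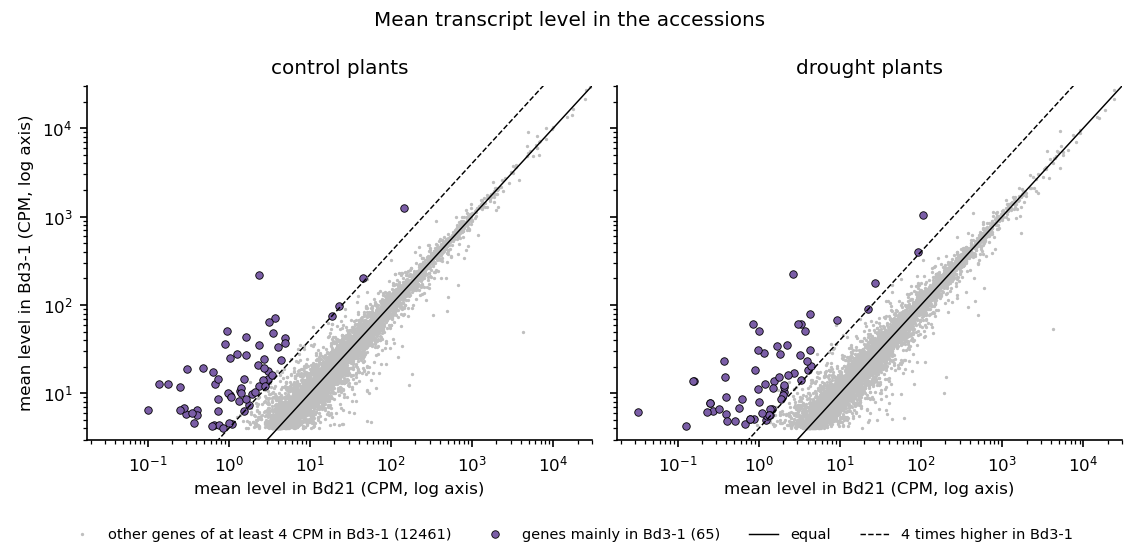
Mean level in Bd21 (x axis, CPM, log scale) and in Bd3-1 (y axis, CPM, log scale) in control plants (left) and drought plants (right), 1 point per gene with at least 4 CPM in both Bd3-1 groups. The 65 purple points lie on or above the dashed line of 4 times higher levels in Bd3-1, and most of the 12526 genes lie near the solid line of equal levels.

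The accessions did not overlap for 22 of the 65 genes: the lowest of 116 Bd3-1 libraries was above the highest of 97 Bd21 libraries. Among all 12526 genes at that level in Bd3-1, 29 separated the accessions in this way (0.232%), and since the rule used the same contrast nothing is read from the comparison. The clearest separation was that of Bradi4g30740. Its level was 76.6 to 440 CPM in Bd3-1 control (median 209) and 107 to 480 CPM in Bd3-1 drought (median 198). In Bd21 it was 0 to 5.51 CPM in control (median 2.42) and 0.420 to 5.53 CPM in drought (median 2.49). The lowest Bd3-1 plant was far above the highest Bd21 plant, and the ratio of means was 90.99 in control and 85.1 in drought.

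Other abundant members also separated the accessions, at smaller ratios. Bradi2g59550 averaged 70.7 ± 20.7 CPM (SD, n = 58) in Bd3-1 control and 3.76 ± 1.80 CPM (n = 48) in Bd21 control. Bradi4g24302 averaged 63.4 ± 10.1 CPM in Bd3-1 control and 3.13 ± 1.12 CPM in Bd21 control. Bradi2g39648 averaged 50.2 ± 9.49 CPM in Bd3-1 control and 0.959 ± 0.762 CPM in Bd21 control. In these 3 genes every Bd3-1 plant was above every Bd21 plant. Bradi3g54020 also separated the accessions, though narrowly: it held 48.0 to 105 CPM in Bd3-1 control (median 75.3) and 62.5 to 131 CPM in Bd3-1 drought (median 85.7), against at most 30.9 and 44.4 CPM in Bd21. It rose with drought in Bd3-1 by 0.18 ± 0.04 on the log2 scale (edgeR adjusted p = 9.74e-06).

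The highest level of all belonged to Bradi5g04080, which did not separate the accessions fully. It reached 567 to 3767 CPM in Bd3-1 control (median 1075) and 433 to 3559 CPM in Bd3-1 drought (median 946). In Bd21 it ranged from 53.1 to 551 CPM in control (median 111) and from 40.4 to 304 CPM in drought (median 89.3). Of 116 Bd3-1 libraries, 4 were at or below the highest Bd21 library. Of its estimates above 0, 98.6% were not whole numbers, which marks reads divided between similar transcripts, so its level is uncertain. Bradi5g27340, second in the mean over both Bd3-1 groups, at 200 ± 75.3 CPM in Bd3-1 control and 45.8 ± 23.9 CPM in Bd21 control, had 87.9% of such estimates. In all, 17 of the 65 genes (26.2%) had over 20% of estimates that were not whole, against 18.6% of the 12526 genes at that level.

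A floor of 3 counts per library, which a count of 0 allows, was set for Bd21. Altogether 6 members stayed at or under it in all 97 Bd21 libraries, and for these the fold is a lower bound against that floor. Bradi4g00714 had 0 counts in 38 of 48 Bd21 control plants and in 46 of 49 droughted ones, and at most 1 count in any. In Bd3-1 control it averaged 6.52 ± 2.19 CPM, at least 4.16-fold higher. Bradi2g19415, with at most 2 counts in any Bd21 plant, was at least 8.07-fold higher in Bd3-1 control, at 12.7 ± 3.86 CPM. Bradi2g56416, with at most 3, was at least 8.11-fold higher at 12.7 ± 4.22 CPM. The floor covers counting error only.

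Other members of high ratio were counted above the floor in some Bd21 plants. Bradi5g20082 held 10.3 to 29.8 CPM in Bd3-1 control (median 19.5) and 0 to 1.36 CPM in Bd21 control (median 0), and 57.8% of its estimates were not whole. Bradi4g10422 held 10.2 to 43.6 CPM in Bd3-1 control (median 18.7) and 0 to 2.33 CPM in Bd21 control (median 0.461). In both genes the accessions stayed apart. In control plants the ratio of means was 61.5 for Bradi5g20082, 52.3 for Bradi2g39648, 40.9 for Bradi4g10422 and 40.2 for Bradi1g49322. Their Bd21 control means were all below the floor of 3 counts, so these ratios are uncertain. Against that floor the folds were at least 12.0, 32.0, 12.4 and 23.0, in the same order.

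At the edge of the rule the genes differed little from those left out. Bradi3g59380 (4.05 CPM in its lower Bd3-1 group) and Bradi5g20422 (4.30 CPM) were just inside the level limit, and Bradi2g01301 (3.74 CPM) and Bradi3g50211 (3.67 CPM) just outside. Bradi4g14710 (4.00-fold) and Bradi3g54020 (4.01-fold) were just inside the ratio limit, and Bradi5g01930 (3.94-fold) and Bradi4g43460 (3.901-fold) just outside. The ratio limit held under both regimes in every growth batch and every sequencing plate, each taken alone, for 44 of the 65 genes. Bradi2g24820, Bradi4g02020 and Bradi3g54020 met it in 1 of 4 growth batches. The 3 members named next showed the widest overlap of the accessions despite their means. Of 116 Bd3-1 libraries, 114 were at or below the highest Bd21 library for Bradi4g02020, 108 for Bradi1g13060 and 72 for Bradi2g24820. A single Bd21 plant of 14.4 CPM set this for Bradi4g02020: against the next highest, at 5.52 CPM, 48 Bd3-1 libraries were at or below.

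The library Bd3-1 drought replicate 59 was not used by the rule and is described here. It already resembled Bd21 plants in the genes found mainly in Bd21, so no support for the rule is read from this library. In it 43 of the 65 genes were below every other Bd3-1 library, 20 had a count of 0, and 62 fell within the Bd21 range. The 22 genes that separated the accessions were all below their Bd3-1 range. The summed level of the 65 genes was 476 CPM in this library, against 2431 to 5308 CPM in the other droughted Bd3-1 plants and 235 to 521 CPM in droughted Bd21 plants. Its highest members were Bradi5g04080 (269.8 CPM), Bradi5g27340 (52.4 CPM) and Bradi4g30668 (22.2 CPM), followed by Bradi3g54020 and Bradi5g18277 (both 15.3 CPM). All 5 values lay within the range of Bd21 drought plants. Whether the label or the library is at fault was not tested.

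**Figure D2:**
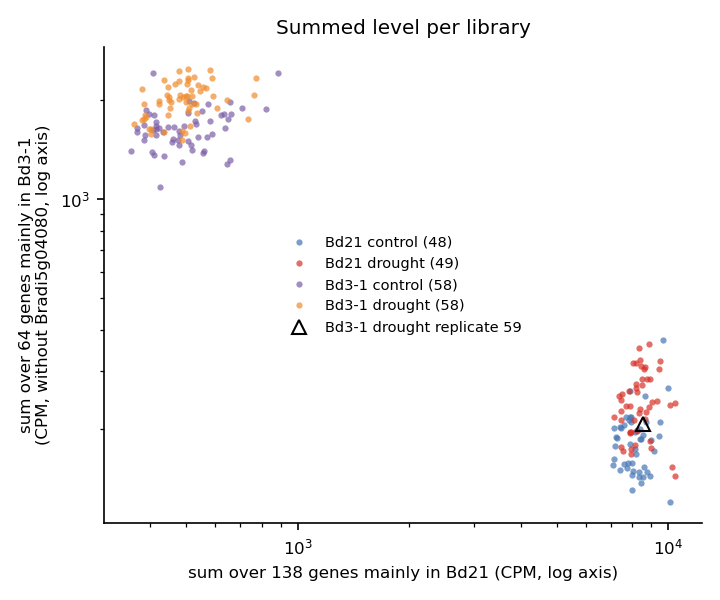
Summed level of the 138 genes found mainly in Bd21 (x axis, CPM, log scale) against that of 64 genes found mainly in Bd3-1, without Bradi5g04080 (y axis, CPM, log scale), 1 point per library. The accessions form separate groups by construction of the lists, and the triangle, Bd3-1 drought replicate 59, lies among the Bd21 plants at 206.6 and 8560 CPM.

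The drought contrast asked how the Bd3-1 transcripts moved as the soil dried. In Bd3-1, 39 of the 65 genes changed, 18 rising and 21 falling (edgeR quasi-likelihood test, adjusted p under 0.05 over 26164 genes). Of all tested genes 30.8% were called in this contrast (15.2% rising, 15.6% falling), and of the 12526 genes at the same level 44.6%. The median log2 fold change of the 65 was -0.02, beside -0.01 for the genes at that level. Most changes were small: 16 of the 39 were at least 1.5-fold and 8 at least 2-fold. The direction was the same in all 4 growth batches and all 3 sequencing plates for 37 of the 39. Since the rule asked for 4 CPM in both groups, genes that drought took below that level are not among the members.

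Bradi4g30668 rose most. Control Bd3-1 plants held 4.15 to 39.9 CPM (median 11.2) and droughted ones 18.2 to 126 CPM (median 67.7), and all 58 droughted plants were above the control median. The rise was 2.44 ± 0.11 on the log2 scale (SE, edgeR adjusted p = 1.33e-40). In Bd21, where it was scarce, control plants held 0 to 6.5 CPM (median 2.41) and droughted plants 3.91 to 27.9 CPM (median 8.24). It rose there too, by 1.65 ± 0.13 (adjusted p = 3.46e-21), and all 49 droughted plants were above the control median. The median of droughted Bd21 plants remained below that of control Bd3-1 plants.

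Bradi3g60740 rose in Bd3-1 from 5.96 to 56.2 CPM (median 22.4) in control plants to 30.5 to 106 CPM (median 56.7) in droughted plants. The log2 change was 1.25 ± 0.09 (edgeR adjusted p = 6.08e-25), and again all 58 droughted plants exceeded the control median. In Bd21 the medians were 2.42 and 3.12 CPM, and the log2 change of 0.18 missed the threshold (adjusted p = 0.399). Its ratio between the accessions was 9.04 in control and 18.5 in drought.

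The endopeptidase gene Bradi5g18277 was among the abundant members and rose with drought in Bd3-1. Its level was 10.2 to 252 CPM in Bd3-1 control (median 86.7) and 43.4 to 388 CPM in Bd3-1 drought (median 164), with wide overlap. The log2 change was 0.82 ± 0.13 (edgeR adjusted p = 2.32e-08), and 50 of 58 droughted plants were above the control median. In Bd21 it went from 4.81 to 79.7 CPM (median 18.7) to 7.23 to 57.0 CPM (median 26.2), a log2 change of 0.16 that missed the threshold (adjusted p = 0.503).

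The remaining large rises in Bd3-1 were those of Bradi2g24820 (1.01 ± 0.19, edgeR adjusted p = 6.63e-06), Bradi5g27340 (0.94 ± 0.09, adjusted p = 3.23e-17) and Bradi2g33116 (0.84 ± 0.15, adjusted p = 1.80e-06), all on the log2 scale. Bradi5g27340 went from a median of 196 to 389 CPM in Bd3-1 and from 43.2 to 83.2 CPM in Bd21. Its log2 change in Bd21 was 0.95 ± 0.14 (adjusted p = 1.48e-08), close to that in Bd3-1. The NAC-domain gene Bradi3g59380 rose from a median of 3.62 to 5.51 CPM in Bd3-1 (0.66 ± 0.18, adjusted p = 0.00161) and from 0.577 to 1.33 CPM in Bd21 (0.74 ± 0.26, adjusted p = 0.0236).

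The largest fall was that of Bradi3g35240. Bd3-1 control plants held 7.25 to 125 CPM (median 31.4) and droughted ones 1.41 to 73.0 CPM (median 13.3). The log2 change was -1.23 ± 0.18 (edgeR adjusted p = 6.09e-09), with 51 of 58 droughted plants below the control median. In Bd21 it fell from a median of 2.65 to 1.27 CPM, a log2 change of -1.17 ± 0.27 (adjusted p = 0.000434). Levels of this gene overlapped between regimes in both accessions.

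Falls of a similar size were measured for Bradi1g00970 (-1.21 ± 0.22, edgeR adjusted p = 1.54e-06), Bradi4g14710 (-1.07 ± 0.11, adjusted p = 1.42e-14), Bradi1g63460 (-1.07 ± 0.10, adjusted p = 3.17e-18), Bradi3g01154 (-1.04 ± 0.12, adjusted p = 2.28e-13) and Bradi1g53936 (-0.97 ± 0.08, adjusted p = 3.23e-21). Bradi1g53936 was the steadiest of them: only 1 of 58 droughted Bd3-1 plants was above the control median, and the medians were 13.5 and 7.99 CPM. Bradi1g63460 went from a median of 12.3 to 6.11 CPM, with 2 of 58 droughted plants above the control median. Bradi1g00970 had 98.6% of estimates that were not whole and Bradi3g01154 61.5%, so these are uncertain.

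**Figure D3:**
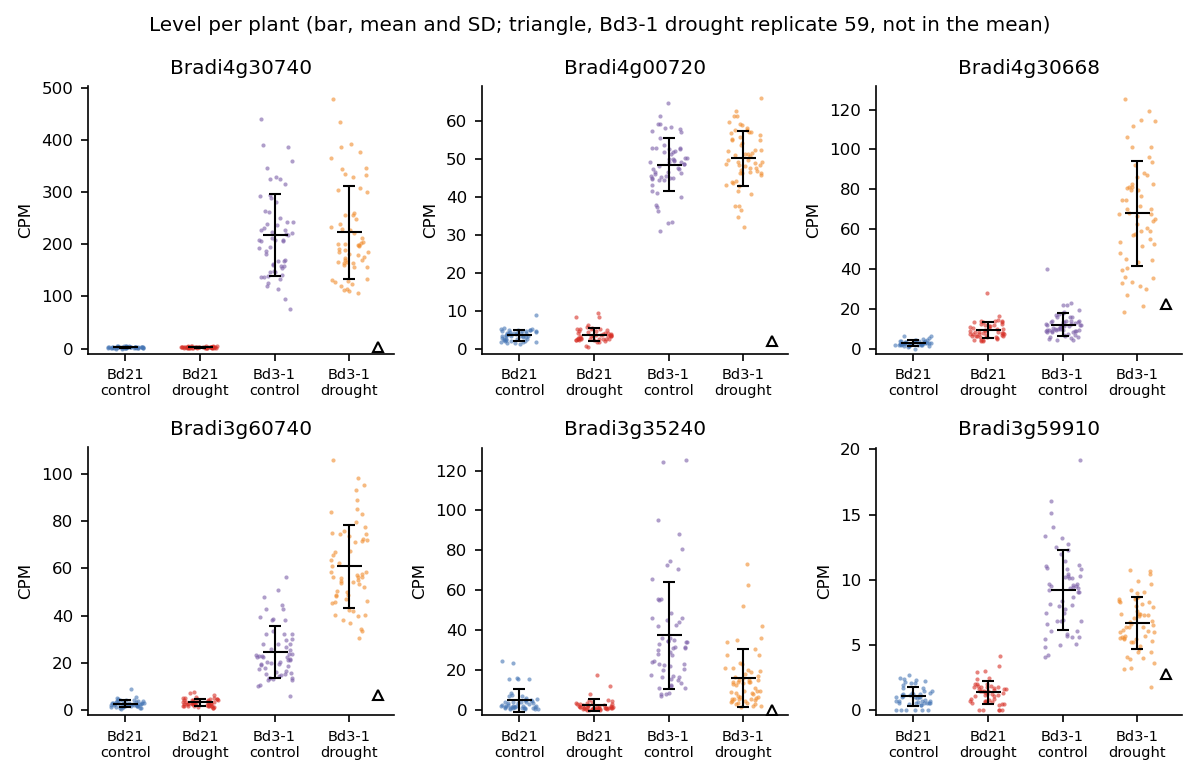
Level per plant (y axis, CPM) of 6 members in the 4 groups, with the mean and SD as bars and Bd3-1 drought replicate 59 as a triangle outside the mean. Bradi4g30740 and Bradi4g00720 kept similar levels under both regimes in Bd3-1, Bradi4g30668 and Bradi3g60740 were higher under drought, and Bradi3g35240 and Bradi3g59910 were lower.

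In Bd21, 17 of the 65 genes changed with drought, 6 rising and 11 falling, against 22.3% of all tested genes (11.6% rising, 10.7% falling) and 32.3% of the genes at the same level in Bd3-1 (edgeR, adjusted p under 0.05). Counts were few there: 52 of the 65 genes reached a mean of 1 count in either Bd21 group and 21 reached 5 counts. Besides Bradi4g30668 and Bradi3g35240, the largest changes were those of Bradi5g23600 (-1.24 ± 0.24, adjusted p = 2.33e-05) and Bradi5g20821 (-1.20 ± 0.34, adjusted p = 0.00504). Bradi5g20821 rested on at most 3 counts in any Bd21 library. In Bd3-1 the same genes fell by 0.57 and 0.56 on the log2 scale, and both passed the threshold.

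Genes called in both accessions moved the same way. Of the 17 called in Bd21 and the 39 called in Bd3-1, 16 were shared, 5 rising and 11 falling in both. The remaining one, Bradi1g68516, rose in Bd21 (0.48 ± 0.18, edgeR adjusted p = 0.0449), and its change of 0.12 in Bd3-1 missed the threshold (adjusted p = 0.0701). With no filter on low counts its Bd21 call was lost (adjusted p = 0.0564). The other 23 genes called in Bd3-1 were not called in Bd21, which does not show that their responses differed. The accessions share no plants in these contrasts.

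**Figure D4:**
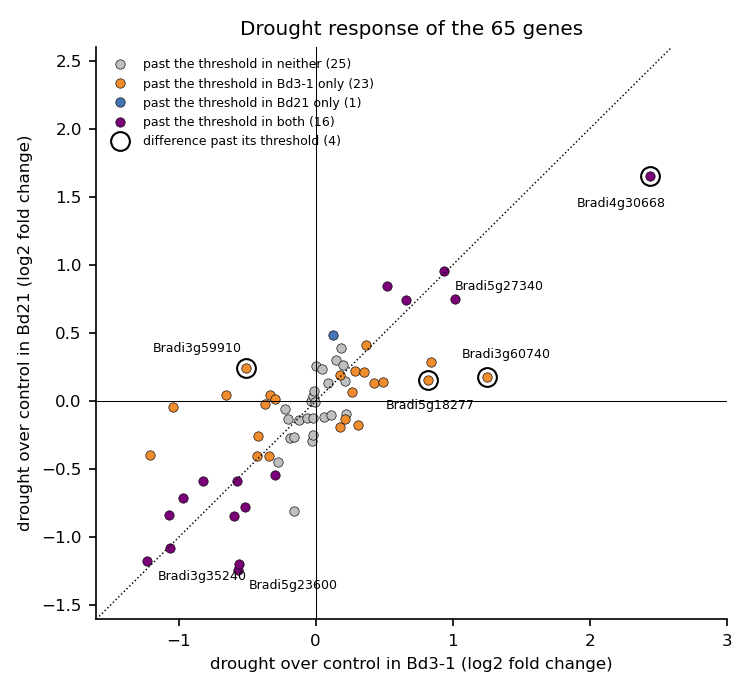
Drought over control as log2 fold change in Bd3-1 (x axis) and in Bd21 (y axis) for the 65 genes, coloured by the accession in which they passed the threshold, with the dotted line of equal change. The 16 genes called in both lie in the lower left or upper right corner, and circles mark the 4 genes whose change differed between the accessions.

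The difference itself was tested as the interaction, in which the log2 change under drought in Bd3-1 was subtracted from that in Bd21. It passed for 4 of the 65 genes (edgeR, adjusted p under 0.1), against 1.7% of all tested genes (0.577% with a positive and 1.12% with a negative difference) and 2.51% of genes at the same level. Bradi3g60740 (-1.09 ± 0.19, adjusted p = 3.6e-05), Bradi4g30668 (-0.80 ± 0.21, adjusted p = 0.0192) and Bradi5g18277 (-0.67 ± 0.20, adjusted p = 0.0612) rose more in Bd3-1. Bradi3g59910 differed the other way (0.73 ± 0.21, adjusted p = 0.0489). It fell in Bd3-1 from 4.05 to 19.2 CPM (median 9.36) to 1.75 to 10.7 CPM (median 6.56), by 0.51 ± 0.08 (adjusted p = 1.48e-07), with overlapping groups. In Bd21 its median was 0.964 CPM in control and 1.37 CPM in drought, a log2 change of 0.24 that missed the threshold (adjusted p = 0.450). Its mean count there was 2.27 in control and 2.59 in drought, below the floor of 3 counts, so the difference is uncertain. The rule limits this contrast, since a gene whose ratio fell below 4 under either regime was not taken.

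Drought changes in Bd3-1 were small for the members that separated the accessions. None of the 22 changed by 1.5-fold or more, their log2 changes lay between -0.42 and 0.49, and 10 of them were past the threshold (45.5%, beside 44.6% of the genes at the same level). Among the 43 members with overlapping accessions, 29 were past the threshold and 16 of those changed at least 1.5-fold. Of the 22 that separated the accessions, Bradi4g00720 is an example, with medians of 49.1 CPM in Bd3-1 control and 49.8 CPM in Bd3-1 drought. Bradi4g30740, Bradi2g59550 and Bradi4g24302 of the same 22 also missed the threshold, as did overlapping members such as Bradi4g12806. Both splits share the Bd3-1 libraries with the choice of genes, and a gene with a wide spread or a drought response overlaps more easily, so no test is given. Over all 65 genes, Spearman's rho between the size of the drought change and the smaller of the ratios was -0.335, as a description.

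Many members varied widely between plants of 1 group, with growth batches and sequencing plates pooled. Their biological coefficient of variation, the spread left after counting error is subtracted, had a median of 0.264 in Bd3-1 control and 0.286 in Bd3-1 drought, beside 0.157 and 0.149 over the 12526 genes. The highest in control plants were those of Bradi1g13060 (1.71), Bradi2g24820 (1.65) and Bradi1g00970 (1.17). Bradi1g13060 ranged from 2.72 to 222 CPM with a median of 12.2, and Bradi2g24820 from 0 to 44.0 CPM with a median of 2.51. The same 3 control plants were the 3 highest for both genes and for Bradi4g16191, and they held 41.7% of the summed CPM of Bradi1g13060 and 41.9% of that of Bradi2g24820. They came from 2 growth batches and 2 sequencing plates, at totals of 1.51 to 2.01 M counts, and were the 3 highest for 81 of the 12526 genes at this level. Without them the coefficient was 0.600 for Bradi1g13060, 0.365 for Bradi2g24820 and 0.853 for Bradi1g00970. The drought rise of Bradi2g24820 was 1.70 on the log2 scale without them, and still past the threshold. With them, Bradi2g24820 averaged 4.55 CPM in Bd3-1 control, 4.09 times its Bd21 mean. Bradi1g13060 averaged 23.8 CPM there, 5.43 times its Bd21 mean. Both genes met the rule only with these plants counted. At the other end were Bradi1g68516 (0, no spread beyond counting error), Bradi4g00720 (0.0523) and Bradi4g28177 (0.0684). Bradi4g00720, the most even of the abundant members, stayed within 31.1 to 65.0 CPM over 58 control plants.

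Some variable members rose and fell together across plants. The 5 pairs of strongest correlation in Bd3-1 control plants were taken and then measured in the Bd3-1 drought plants, which had not chosen them, on log2 of normalized counts plus 1. All 5 held there. Pearson's r was 0.846 for Bradi1g00970 with Bradi2g01106 (Spearman's rho 0.859, n = 58, permutation adjusted p = 3.12e-05 over 25 relations, the smallest the permutations can give). For Bradi1g00970 with Bradi1g13060 it was 0.778 (rho 0.826), and for Bradi1g13060 with Bradi2g01106 0.676 (rho 0.686), each at that smallest permutation p. For Bradi2g01106 with Bradi3g35240 r was 0.515 (rho 0.502, permutation adjusted p = 0.000111). These genes lie on chromosomes 1, 2 and 3. Bradi1g00970 is the uncertain one among them for its divided reads, and the other 3 had 0% of estimates that were not whole. Over all 2080 pairs of members the median absolute r was 0.126 in drought plants.

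The fifth pair joined Bradi2g33116 with the endopeptidase gene Bradi5g18277, at r = 0.709 (rho 0.743, permutation adjusted p = 3.12e-05, n = 58). Without the 2 plants farthest from the median of the first gene, r over the 5 pairs was 0.467 to 0.839, and with the means of each growth batch and plate removed it was 0.591 to 0.849. In Bd21 the last pair was again correlated in control, at r = 0.623 (rho 0.607, permutation adjusted p = 3.12e-05, n = 48). In Bd21 drought r was 0.398 (permutation adjusted p = 0.0106, n = 49), while the rank test missed the threshold (rho 0.298, permutation adjusted p = 0.0643). Bradi2g01106 with Bradi3g35240 was correlated in both Bd21 groups, at r = 0.322 in control (rho 0.347, permutation adjusted p = 0.0423 and 0.033) and 0.431 in drought (rho 0.435, permutation adjusted p = 0.00505 and 0.00475). For Bradi1g00970 with Bradi2g01106 the Bd21 values were -0.251 (rho -0.149, permutation adjusted p = 0.115) and 0.279 (rho 0.244, permutation adjusted p = 0.0716). The mean levels of these genes in Bd21 control were 4.99 and 1.64 CPM, and the part of counting error was not tested. The remaining pairs missed the threshold in both Bd21 groups, by r and by rank. For Bradi1g00970 with Bradi1g13060 r was -0.2855 in Bd21 control and 0.144 in Bd21 drought (permutation adjusted p = 0.0716 and 0.349). For Bradi1g13060 with Bradi2g01106 it was 0.216 and 0.185 (permutation adjusted p = 0.168 and 0.23). Bradi5g18277 was also tied to Bradi1g53680, a predicted zinc transporter that is no member, at r = 0.907 in Bd3-1 control (rho 0.888) and 0.914 in Bd3-1 drought (rho 0.898), both at the smallest permutation p. The study had inferred a link between these genes from the same plants, so their correlation is a description and no independent result.

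**Figure D5:**
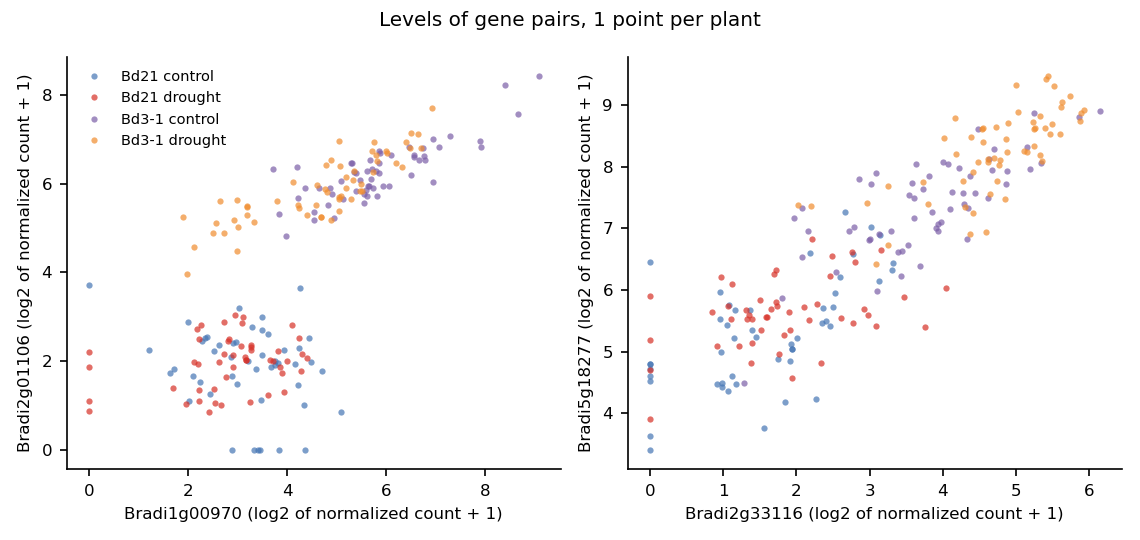
Levels of Bradi1g00970 against Bradi2g01106 (left) and of Bradi2g33116 against Bradi5g18277 (right), both axes as log2 of the normalized count plus 1, 1 point per plant coloured by group. In Bd3-1 both pairs rise together under both regimes, with r of 0.846 and 0.709 in droughted plants, while in Bd21 the left pair shows no clear slope.

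The members were spread over all 5 chromosomes, with 15, 12, 9, 15 and 14 genes on chromosomes 1 to 5. As a share of the genes at the same level this was 0.389%, 0.422%, 0.315%, 0.827% and 1.21%, highest on chromosome 5. In locus order, where members were 0.200% of all loci, only Bradi4g00714 and Bradi4g00720 were direct neighbours. Within 5 rows of each other lay 8 members in 4 pairs, the others being Bradi1g53936 with Bradi1g53947, Bradi3g01154 with Bradi3g01170 and Bradi5g20076 with Bradi5g20082. The adjacent genes differed in level, at 6.52 and 48.6 CPM in Bd3-1 control, and both separated the accessions. Bradi1g53936 and Bradi1g53947 both fell with drought in Bd3-1 (-0.97 and -0.83 on the log2 scale) and in Bd21 (-0.71 and -0.58), the latter with 97.6% of estimates that were not whole, which leaves its values uncertain. Of the 8 correlations within these pairs, that of Bradi3g01154 with Bradi3g01170 in Bd3-1 control was largest (r = 0.646, rho 0.604, permutation adjusted p = 3.12e-05, n = 58), and in drought r was 0.268 (permutation adjusted p = 0.0655) and rho 0.376 (permutation adjusted p = 0.00925). For the adjacent Bradi4g00714 and Bradi4g00720 r was weak and of opposite sign, -0.305 in control (rho -0.290, permutation adjusted p = 0.0378) and 0.349 in drought (rho 0.301, permutation adjusted p = 0.0151). Over 50% of the estimates of both Bradi3g01154 and Bradi3g01170 were not whole, so that shared reads cannot be told apart from shared levels.

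Locus numbers of the members more often ended in a digit other than 0. Loci of the first annotation were numbered in steps that left room for gene models added later. Of the 65 members 38 (58.5%) carried a number of this kind, against 23.3% of the 12526 genes at the same level and 43.3% of all ordered loci. Among the 138 genes found mainly in Bd21 the share was 53.6%. These shares are given as descriptions, without a test.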

How the data were processed

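Leaf transcripts of 214 plants were counted by 3′ digital gene expression, which tags transcript ends, so that counts do not grow with gene length. Per the labels and the study's methods, the authors trimmed reads (Trimmomatic 0.39, cutadapt 2.10), aligned them to Bd21 primary transcripts (annotation v3.2) and the Bd21 plastid genome (Bowtie2 2.4.0), removed reads sharing a gene and molecular identifier, and estimated expected counts (RSEM 1.3.3), which divide a read among similar transcripts. The deposited expected counts were not normalized and covered 32439 nuclear and 84 plastid rows, 0 of them without a gene. Bd3-1 reads were also aligned to Bd21 sequence, and the part of this in the levels was not tested. No promoter or protein sequence of these loci was used here.

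Counts were rounded and tested with the quasi-likelihood test of edgeR 4.0.16 in R 4.3.3 (TMM factors, trended dispersion) for 26164 genes with counts above 0 in more than 10 libraries, within each accession for drought and over 213 libraries for the interaction. The Benjamini-Hochberg adjustment ran over those genes, with thresholds of 0.05, and 0.1 for the interaction. SE was the log2 fold change over the square root of F. DESeq2 1.42.0, RLE factors, other filters, growth batch and plate terms (4 growth batches and 3 plates, from the study's supplementary records), replicate 59 and a replicate block were alternatives. The functions were tested on simulated data. The members, lists and tests were chosen with earlier results of these data known. Named were the 8 members of highest level and of highest ratio, those with the largest changes, the highest and lowest spread, the closest loci, those nearest the limits of the rule, those in the study's text, the highest in replicate 59 and those with most overlap. Group comparisons of single plants measure the spread between plants over these growth batches and plates.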

Additional observations from a re-analysis of the deposited data

Results flagged for a closer look

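The drought response differed between the accessions for 4 of the 65 genes by the test of the difference itself, in which the log2 change of Bd3-1 was subtracted from that of Bd21 (edgeR, adjusted p under 0.1). Of all tested genes 1.7% passed, and 2.51% of the genes at the same level in Bd3-1. The rule limits this contrast, since it kept out genes whose ratio fell below 4 under either regime. The difference was -1.09 for Bradi3g60740 (adjusted p = 3.6e-05), -0.801 for Bradi4g30668 (adjusted p = 0.0192), 0.725 for Bradi3g59910 (adjusted p = 0.0489) and -0.674 for Bradi5g18277 (adjusted p = 0.0612). In droughted Bd3-1, 58 of 58 plants were above the control median for Bradi3g60740, 58 for Bradi4g30668, 5 for Bradi3g59910 and 50 for Bradi5g18277. In droughted Bd21 of 49 plants the counts were 34, 49, 32 and 39. Bradi3g59910 averaged 2.27 counts per library in Bd21 control and 2.59 in Bd21 drought, below the floor of 3, so its difference is uncertain.

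The library left out of the comparisons, Bd3-1 drought replicate 59, held signal of the other accession. Of the 138 genes found mainly in Bd21, 131 were above the highest Bd3-1 control library in it, and 132 lay within the range of the Bd21 libraries.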

How the results depend on the processing

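The number of members moved with the limits of the rule: 40 genes at a mean of at least 8 CPM, 103 with Bd21 at most 1/3 of Bd3-1 and 33 with Bd21 at most 1/8. With replicate 59 in the means 63 genes were left, all of them members, and the number that separated the accessions went from 22 to 0. Without genes of over 20% estimates that were not whole, 48 remained. Requiring 1.5-fold left 16 of the 39 drought calls in Bd3-1. In Bd21 the filterByExpr filter left 5 members tested and 4 called, since it drops genes of few counts. Members next to another member rose from 2 to 6 among loci of at least 1 CPM and to 8 within 5 rows. DESeq2 called 39 members in Bd3-1, 17 in Bd21 and 6 for the interaction. Shares over all tested genes are given for the main fits only, so nothing is read from the counts of other fits. Of the called genes given with a value, 18 in Bd3-1 and 4 for the interaction kept direction and call in every alternative fit that tested them, fold limit aside. Of 9 in Bd21, 8 did so, and Bradi1g68516 lost its call with no filter (adjusted p = 0.0564) and with the replicate block (adjusted p = 0.159).

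With the replicate number as a block, using the dispersion trend of the unblocked design, 40 members were called in Bd3-1 and 17 in Bd21. Few plants matched their own number best: 4 Bd3-1 and 3 Bd21 control plants did so. Same-numbered plants still had correlated deviations over 0.1 in 37 of 58 Bd3-1 pairs and 32 of 48 Bd21 pairs. The median r was 0.241 in Bd3-1 and 0.249 in Bd21, and what same-numbered plants share was not tested. Correlations with batch and plate means removed, and fits without the 3 Bd3-1 control plants that stood apart for Bradi1g13060 (39 members called in Bd3-1, 5 for the interaction), were added after seeing the data.

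Depth limits the Bd21 values, with a median over members of 2.90 counts per control library.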

Other observations

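Within 5 loci of 4 of the 65 members lay a gene found mainly in the other accession. Such genes were 0.426% of all ordered loci, so nothing is read from the count. Bradi4g28177 and Bradi4g28188 were direct neighbours. The former averaged 11.5 ± 2.57 CPM (SD, n = 58) in Bd3-1 control and 1.42 ± 0.882 CPM (n = 48) in Bd21 control, and the latter 0.608 ± 0.564 CPM in Bd3-1 control and 23.2 ± 5.48 CPM in Bd21 control. In drought the means in Bd3-1 and Bd21 were 11.6 and 1.48 CPM for Bradi4g28177 and 0.902 and 22.6 CPM for Bradi4g28188, the same order as in control. In Bd3-1 drought replicate 59 Bradi4g28177 had a count of 0 and Bradi4g28188 was at 15.9 CPM. The other 3 were Bradi2g03022 with Bradi2g03047, Bradi4g12806 with Bradi4g12800 and Bradi5g15565 with Bradi5g15527, where the neighbours had control means of 4.46 to 5.34 CPM in Bd21. Bradi2g03022 averaged 14.5 CPM in Bd3-1 control, with 98.1% of estimates that were not whole, and Bradi4g12806 and Bradi5g15565 averaged 4.65 and 4.63 CPM. No test was made of this arrangement.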
